A study of Mus musculus with 24 samples.

Results

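The step between day 2 and day 3 of OV organoid culture is described here across all genes, in both directions, from 6 of the 24 RNA-seq libraries of a mouse time course. The members are the 3 libraries of day 2 and the 3 libraries of day 3, chosen by their day labels. All 6 came from Rx-GFP K/I EB5 mESCs, a line with a GFP reporter knocked into the Rax locus, and all were taken as live single cells without sorting on GFP. Each library was made from 24 organoids that had been dissociated together. Every organoid began as 4500 cells on day 0, and Matrigel was added to 2% on day 1. The labels give GMEM with 1.5% knockout serum replacement as the medium, whereas the study's methods name a growth factor-free defined medium for its initial organoids, so the medium of these libraries is uncertain. Day 2 and day 3 therefore differ in age alone as far as the labels say, and a value is an average over whatever cell types the pooled organoids held. The 3 libraries of day 1 were used to compare the step with the step before it. The 3 GFP-negative and the 3 GFP-positive libraries of day 4, the first day on which live cells were also sorted on GFP, were used as a readout that shares no library with days 2 and 3. By the study's methods the day 4 samples were split by GFP into both gates. The gates may therefore share organoids, and the main fit did not pair them. GFP in this line reports Rax, so the GFP-positive gate is enriched for cells of the eye field and of other Rax-expressing tissue. The separation is not complete, since by the study's methods the GFP-negative gate also took in some cells with low GFP.

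In the mouse embryo the epiblast leaves pluripotency during gastrulation and gives rise to several lineages side by side. At its posterior side Wnt, Nodal, BMP and FGF signals switch on T-box and homeobox TFs of the primitive streak, from which mesoderm and definitive endoderm derive. At its anterior side, where antagonists keep these signals low, TFs of the anterior neural plate appear, and a field within that plate becomes the eye. The comparison asks which genes of these lineages change first when mESC aggregates are taken towards the optic vesicle.

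Values are normalised counts, that is, estimated reads per gene divided by a size factor for each library. The 6 libraries held 45269622 to 47933996 normalised counts, from about 37000000 to 54700000 assigned reads as estimated from the step at which low values cluster. Rank correlations between replicates lay between 0.990 and 0.991 on day 2 and between 0.981 and 0.991 on day 3, where replicate 1 stood slightly apart from replicates 2 and 3. Day 0 replicate 1, which enters the fit but neither day, had rank correlations down to 0.953 with the other day 0 libraries. The study describes the replicates as biological triplicates. Log2-fold-changes were estimated with limma on log2(normalised count + 1), and the 1 that is added understates the change of genes with low counts.

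Of the 21005 gene entries tested, 150 (0.714%) were called higher and 61 (0.29%) were called lower on day 3, where a call needed a log2-fold-change beyond 1.5 in either direction and an adjusted p under 0.001. The 61 are table entries and hold 59 distinct symbols, since Gstp2 and Rapsn, named after their values were seen, each have 2 entries with equal values, 1 of them off the assembled chromosomes. For each of these 211 entries the values of day 3 lay entirely outside those of day 2. Non-overlap alone was common in this comparison, at 18.5% of all genes in the upward and 21.8% in the downward direction. Rises were larger than falls, with 27 entries called higher and 1 called lower beyond an absolute log2-fold-change of 3. The 1 was Tgtp1, a GTPase of the interferon response with close gene copies, at 12, 10.8 and 10.4 normalised counts on day 2 and 0, 0 and 0 on day 3, and is named after its values were seen. The median over all genes tested was -0.02. In whole organoids, more cells of a type and more RNA of a gene in each cell cannot be told apart. Without the fold threshold and at an adjusted p below 0.05, 1567 genes (7.46%) were higher and 1468 (6.99%) were lower, and the words rose and fell below refer to this rule.

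**Figure D1:**
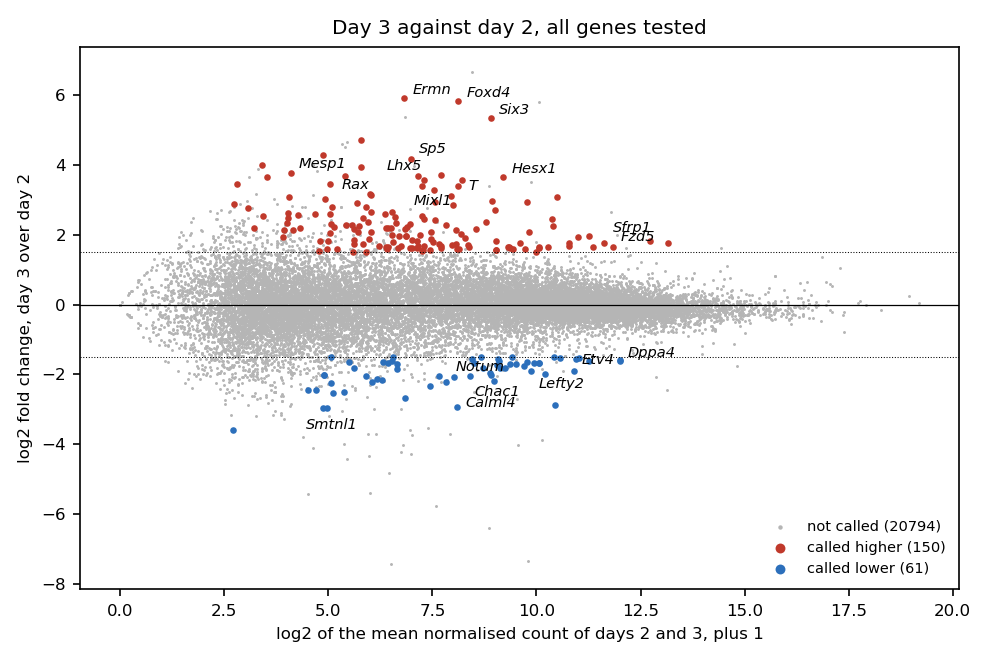
Each point is 1 of the 21005 genes tested, with the log2 of its mean normalised count over days 2 and 3 (plus 1) on the horizontal axis and its log2-fold-change between the days on the vertical axis. Red points are the 150 entries called higher, blue points the 61 called lower, and dotted lines mark 1.5 in either direction. The red points reach further from 0 than the blue ones.

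The number of calls depended on which libraries entered the fit. When each library of the 2 days was left out in turn, 95 to 119 genes were called higher and 26 to 46 lower, with 82 of the 150 and 20 of the 61 called in all 6 of these fits. The count of falls was 26, 31 and 31 without day 2 replicates 1, 2 and 3, 46 without day 3 replicate 1, 28 without replicate 2 and 34 without replicate 3, and the count of rises was 95 without day 3 replicate 2. Without day 0 replicate 1 the calls numbered 188 and 96. With the 6 libraries alone there were 103 and 69 calls, and with the 12 libraries of days 0 to 3, which include day 0 replicate 1, 33 and 46. At an adjusted p below 0.05, falls numbered 854, 827 and 877 without day 2 replicates 1, 2 and 3, 864 and 845 without day 3 replicates 2 and 3 and 1563 without its replicate 1, and without day 0 replicate 1 there were 2543 rises and 2540 falls. All 150 and all 61 kept an adjusted p below 0.05 in each of the 6 fits that left out a library of day 2 or day 3. The fits that left out a library, as referred to below, are these 6 unless day 0 is named.

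Several TFs of mesendoderm and the primitive streak rose on day 3, and T, Mixl1, Sp5 and Mesp1 had the largest changes that held in all fits. Of 27 such TFs tested, 11 rose and 0 fell between day 2 and day 3, and their median log2-fold-change was 0.96. Leaving out a library of either day left 9 or 10 that rose, and without day 3 replicate 1 2 members fell. T (Brachyury), the T-box TF of nascent mesoderm, had low counts on day 2 and not on day 3. On day 2 T had 43.3, 45.02 and 52.95 normalised counts in the 3 libraries, and on day 3 it had 495, 508 and 512. The 3 values of day 3 were almost equal and lay 10.7-fold above those of day 2 by their means. T lies at chr17:8434423-8442496 on the plus strand of mm10, and its rise passed the test (log2-fold-change 3.40, standard error 0.29, adjusted p = 1.74e-07, limma).

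Mixl1, a paired-type homeobox TF of the streak, had 17.2, 33.2 and 26.3 normalised counts on day 2 and 194, 345 and 295 on day 3. Replicate 1 was the lowest on both days, and the days did not overlap (log2-fold-change 3.40, standard error 0.46, adjusted p = 3.96e-05, limma). Sp5, a zinc-finger TF and well-known target of Wnt/β-catenin signalling, had 13.8, 12.8 and 9.66 on day 2 and 305, 226 and 183 on day 3 (log2-fold-change 4.17, standard error 0.44, adjusted p = 2.84e-06, limma). Mesp1, a basic helix-loop-helix TF of early mesoderm that later gives rise to heart, was barely detected on day 2 at 5.74, 7.48 and 2.64 and reached 97.4, 64.1 and 67.6 on day 3 (log2-fold-change 3.68, standard error 0.49, adjusted p = 3.98e-05, limma). For these genes the change was several times its standard error, and their calls held in all 6 fits that left out a library.

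Evx1, a homeobox TF of the posterior streak, had 13.04, 12.7 and 8.01 normalised counts on day 2 and 113, 86.2 and 72.01 on day 3 (log2-fold-change 2.90, standard error 0.48, adjusted p = 0.000336, limma). Its antisense neighbour Evx1os went from 0.841, 3.14 and 1.93 to 66.9, 55.4 and 41.6. Both genes overlap in the annotation and the strandedness of the counting was not given in the sources used here, so reads of the pair cannot be told apart. The call of Evx1os held in 1 of the 6 fits that left out a library and that of Evx1 in 0 of them, at log2-fold-changes of 3.97 to 4.56 and 2.69 to 3.05. Gsc (Goosecoid), the homeobox TF of the organiser at the anterior end of the streak, had 27.5, 23.5 and 21.1 on day 2 and 112, 97.8 and 100.5 on day 3 (log2-fold-change 2.06, standard error 0.33, adjusted p = 0.000249, limma). Its call also held in 0 of the 6 fits, at log2-fold-changes of 1.98 to 2.16.

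Lhx1, a LIM-homeobox TF of the same anterior region, had 54.9, 78.8 and 53.7 normalised counts on day 2 and 451, 287 and 248 on day 3, and rose short of the call (log2-fold-change 2.35, standard error 0.46, adjusted p = 0.00153, limma). Eomes, a T-box TF needed for endoderm and mesoderm, was already abundant on day 2 at 928, 1088 and 966 and reached 1950.0, 2128 and 2236 on day 3 (log2-fold-change 1.08, standard error 0.29, adjusted p = 0.0166, limma). It kept an adjusted p below 0.05 in 2 of the 6 fits, those without day 2 replicate 2 or day 3 replicate 1. Tbx6, a T-box TF of paraxial mesoderm, Nkx1-2, a homeobox TF of the posterior epiblast, and Sp8, a zinc-finger TF also known from forebrain and limb, rose by 1.22, 1.54 and 2.33. Nkx1-2 lost its adjusted p below 0.05 in each of those fits.

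Foxa2 and Sox17, which mark endoderm, did not pass. Foxa2, a forkhead TF of endoderm, node and floor plate, had 82.98, 93.1 and 76.4 on day 2 and 188, 153 and 128 on day 3, values that did not overlap but whose adjusted p was 0.0971 (limma). Sox17, a TF of endoderm, had 144, 110.4 and 170.4 on day 2 and 219, 143 and 57.7 on day 3, and its 3 values of day 3 spread more widely than the days differed (adjusted p = 0.825, limma).

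The promoters of 3 of the streak genes are shown because their sequences hold a core motif of the TCF/LEF factors, through which Wnt/β-catenin signalling acts. The motif was searched as CTTTGAT or CTTTGAA on both strands of the 250 bases before the RefSeq start, a choice made after the values had been seen. The sequences are those of RefSeq on GRCm38.p6, written 5′ to 3′ along the gene, with matches in capitals. They lie at chr17:8434173-8434422 on the plus strand for T, chr2:70474673-70474922 on the plus strand for Sp5 and chr7:79793591-79793840 on the minus strand for Mesp1.
T: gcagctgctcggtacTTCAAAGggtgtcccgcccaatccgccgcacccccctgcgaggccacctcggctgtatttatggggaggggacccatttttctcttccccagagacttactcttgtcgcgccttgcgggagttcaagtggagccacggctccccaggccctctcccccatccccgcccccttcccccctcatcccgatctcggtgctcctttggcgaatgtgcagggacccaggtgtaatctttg
Sp5: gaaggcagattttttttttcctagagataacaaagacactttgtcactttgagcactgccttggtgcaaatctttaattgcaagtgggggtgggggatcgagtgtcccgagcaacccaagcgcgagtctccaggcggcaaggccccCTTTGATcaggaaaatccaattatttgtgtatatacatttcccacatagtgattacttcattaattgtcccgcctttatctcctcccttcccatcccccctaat
Mesp1: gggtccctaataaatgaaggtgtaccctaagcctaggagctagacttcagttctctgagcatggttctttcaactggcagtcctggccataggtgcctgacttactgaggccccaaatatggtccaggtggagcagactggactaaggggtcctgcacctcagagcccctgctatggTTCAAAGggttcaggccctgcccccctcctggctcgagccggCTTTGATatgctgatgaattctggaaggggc
The match began 235 bases before the start in T and 104 bases before it in Sp5, and in Mesp1 the matches began 73 and 31 bases before it. The annotation of the deposited table starts Mesp1 further upstream, at position 79793788 of chromosome 7, and by it both Mesp1 matches lie within the gene. A match was found in 7.48% of 32851 RefSeq windows of this length. Among the genes called higher, 109 of 150 symbols had a window in the table, and 9 of their 142 windows (6.34%) held the motif, a share near the background. In the streak list it was 5 of 23 windows of 18 genes (21.7%), namely those of T, Sp5, Mesp1, Sp8 and Msgn1, and the windows of Evx1 and Gsc held none. It was 4 of 23 windows (17.4%) among genes called higher that were higher in GFP-negative cells of day 4, which include the 3 shown, 2 of 28 windows (7.14%) among those higher in GFP-positive cells and 8 of 56 windows (14.3%) among the genes called lower.

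Several anterior neural TFs rose over the same day, with Six3, Hesx1 and Lhx5 among the largest changes. Of 23 TFs of the forebrain and eye field, 8 rose and 0 fell, with a median log2-fold-change of 0.80, and 8 rose in each of the 6 fits that left out a library. Six3, a homeobox TF of the anterior neural plate and eye field at chr17:85613608-85629302, had 35.9, 17.1 and 16.01 normalised counts on day 2 and 709, 1198 and 889 on day 3 (log2-fold-change 5.34, standard error 0.25, adjusted p = 3.46e-11, limma). Replicate 1 was the highest of its day on day 2 and the lowest on day 3, and the means differed 40.5-fold without overlap. The antisense RNA Six3os1 overlaps Six3 and went from 36.98, 30.4 and 20.5 to 326, 468 and 366, with the same uncertainty about strand.

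Hesx1, a homeobox repressor of the anterior neural plate that forebrain and pituitary need, had 90.9, 80.3 and 82.8 on day 2 and 836, 1332 and 1108 on day 3 (log2-fold-change 3.65, standard error 0.19, adjusted p = 1.28e-10, limma). Lhx5, a LIM-homeobox TF of the forebrain, had 26.4, 25.7 and 18.4 on day 2 and 306, 342 and 222 on day 3 (log2-fold-change 3.56, standard error 0.24, adjusted p = 5.36e-09, limma). In both genes the days were far apart compared with the spread of the replicates. The zinc-finger TFs Fezf1 and Fezf2, which act in forebrain patterning, were present at low counts, Fezf1 with 1.15, 0 and 0.878 on day 2 and 23.2, 26.1 and 11.4 on day 3, and Fezf2 with 5.97, 4.72 and 1.73 on day 2 and 22.4, 35.2 and 21.8 on day 3. Fezf1 was called in all 6 fits that left out a library and Fezf2 in 5 of them.

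Rax, the gene that carries the GFP reporter, had 14.9, 10.7 and 10.5 normalised counts on day 2 and 156, 89.3 and 101 on day 3 (log2-fold-change 3.13, standard error 0.25, adjusted p = 1.04e-07, limma). It thus stood far below its level in the sorted GFP-positive cells of day 4 on either day. Lhx2, another eye-field TF, rose less (log2-fold-change 1.65, standard error 0.30, adjusted p = 0.000715, limma) and was called in 1 of the 6 fits, that without day 3 replicate 1. It was also not called without the filter, without the variance trend, after quantile normalisation or with fewer days in the fit. Otx2, a TF of epiblast and anterior neural tissue, was abundant throughout, at 9866, 10004 and 10006 on day 2 and 12878, 14599.8 and 14689 on day 3 (log2-fold-change 0.49, standard error 0.10, adjusted p = 0.00163, limma). Pax6, a paired-box TF of eye and forebrain, had 97.1, 148 and 120.3 on day 2 and 114, 162 and 150.4 on day 3, values that overlapped (adjusted p = 0.59, limma).

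**Figure D2:**
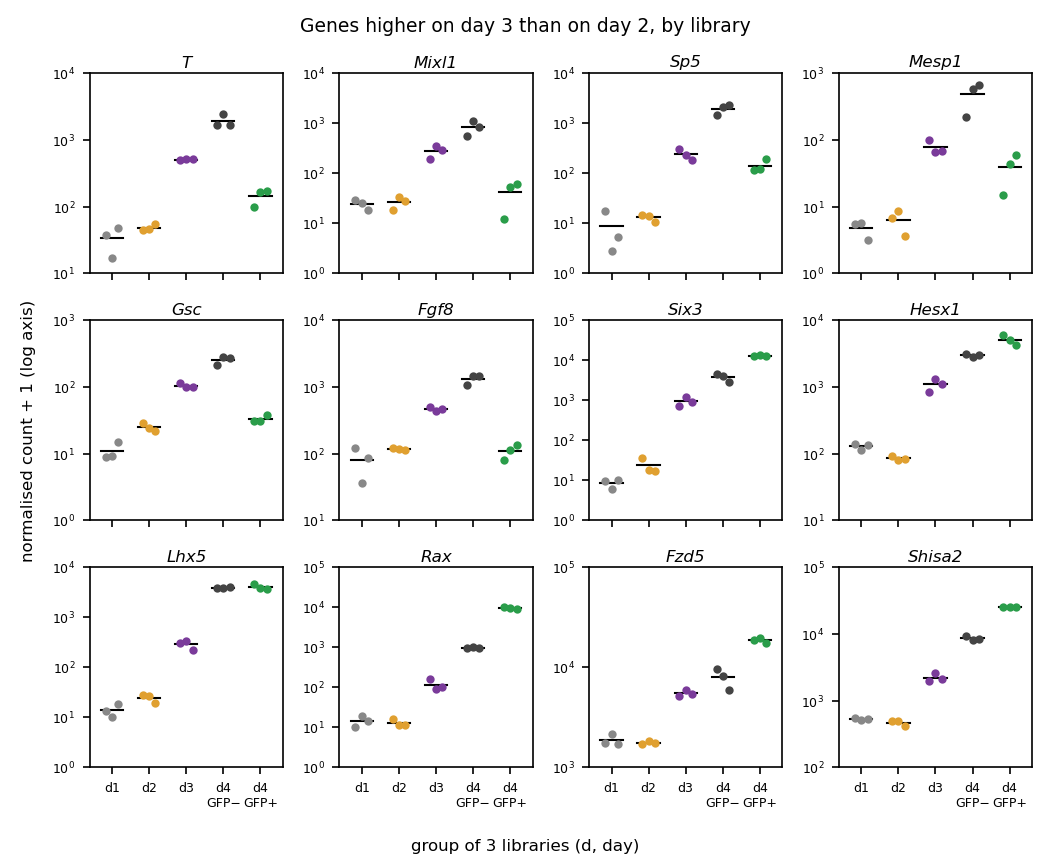
Normalised counts plus 1 (log axis) of 12 genes in the libraries of day 1, day 2, day 3, day 4 GFP-negative (GFP−) and day 4 GFP-positive (GFP+) cells. Each point is 1 library and each bar the mean of 3. All 12 genes sit higher on day 3 than on day 2, and T, Mixl1, Sp5, Mesp1, Gsc and Fgf8 are then higher in the GFP-negative cells of day 4, whereas Six3, Hesx1, Rax, Fzd5 and Shisa2 are higher in the GFP-positive cells.

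TFs of midbrain and hindbrain changed in both directions, with 7 of 24 rising, 4 falling and a median of 0.63. Lmx1b, a LIM-homeobox TF of the midbrain and of limb and kidney, rose in all fits that left out a library, with 217, 194 and 186 on day 2 and 1576, 1633 and 1394 on day 3 (log2-fold-change 2.94, standard error 0.28, adjusted p = 5.57e-07, limma). The Iroquois homeobox TFs Irx3 and Irx5, which act behind the forebrain, both rose. Irx3 had 81.9, 54.8 and 48.8 on day 2 and 506, 485 and 341 on day 3 (log2-fold-change 2.84, standard error 0.26, adjusted p = 4.92e-07, limma). Irx5 had 17.2, 26.8 and 24.4 on day 2 and 139, 149 and 131 on day 3 (log2-fold-change 2.58, standard error 0.33, adjusted p = 2.04e-05, limma). Pax2, Pax3, Pax7 and Meis2 rose by 1.98, 1.48, 0.93 and 1.37 and were not called.

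The 4 that fell were Gbx1, Gbx2, Pax8 and En2. Gbx2, a homeobox TF of the anterior hindbrain that is also active in mESCs, fell from 165, 152 and 119 to 68.7, 77.7 and 59.2 (log2-fold-change -1.07, standard error 0.29, adjusted p = 0.0157, limma). En2, a homeobox TF of the midbrain-hindbrain border, fell from 1010.1, 958 and 866 to 524, 543 and 536 (log2-fold-change -0.82, standard error 0.19, adjusted p = 0.00608, limma). The fall of Gbx2 lost its adjusted p below 0.05 without day 2 replicate 1 or 2 or day 3 replicate 3. Leaving out a library of day 2 or day 3 left 6 or 7 that rose and 3 or 4 that fell, and leaving out day 0 replicate 1 left 9 and 5.

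Some general neural genes changed between the days. Of 23 pan-neural genes, 5 rose (Sox1, Sox11, Zic2, Nes and Ncam1) and 2 fell (Hes3 and Tubb3), with a median of 0.33. Over all genes tested 7.46% rose and 6.99% fell, so the 2 falls are a share near that of all genes. Sox1, the TF that marks the early neural plate, had 49.3, 33.2 and 53.5 normalised counts on day 2 and 126, 146 and 110.4 on day 3 (log2-fold-change 1.49, standard error 0.36, adjusted p = 0.00829, limma). Nes (Nestin), an intermediate filament of neural progenitors, had 2239.6, 2202 and 2139 on day 2 and 4439.8, 3499 and 3427 on day 3 (log2-fold-change 0.78, standard error 0.13, adjusted p = 0.000348, limma). Tubb3, a neuronal tubulin, fell from 1940.3, 1852 and 1707 to 1519.8, 1254 and 1164 (log2-fold-change -0.49, standard error 0.12, adjusted p = 0.00726, limma). Sox1 lost its adjusted p below 0.05 without day 2 replicate 2 and Tubb3 without day 3 replicate 3. Sox2, which both mESCs and neural progenitors express, had 9025, 9158 and 8004 on day 2 and 7772, 10300.4 and 9726 on day 3 and did not pass (adjusted p = 0.766, limma).

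Of 17 genes of neurogenesis, 4 rose and 0 fell. Among them Neurog2, a proneural basic helix-loop-helix TF, had 2.29, 6.42 and 8.78 on day 2 and 25.6, 38.6 and 17.99 on day 3 (log2-fold-change 2.13, standard error 0.46, adjusted p = 0.00332, limma). Leaving out day 2 replicate 2 or day 3 replicate 3 left 2 that rose. In the list of surface ectoderm and neural crest, Sox9, an SRY-box TF of several early tissues, was called higher, with 38.98, 47.1 and 40.4 on day 2 and 303, 382 and 310.1 on day 3 (log2-fold-change 2.94, standard error 0.25, adjusted p = 2.12e-07, limma). That list had 5 members that rose and 2 that fell of 22, and 3 rose without day 2 replicate 1 or 2 or day 3 replicate 3.

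The GFP-sorted cells of day 4 give a further measurement on the same genes. Of the 150 genes called higher on day 3, 30 were higher in the GFP-positive gate of day 4, 29 were higher in the GFP-negative gate and 91 did not pass (limma, adjusted p below 0.05). When the gate difference also had to meet the thresholds of a call, 8 passed on the GFP-positive side and 24 on the GFP-negative side. Over all genes tested the shares at the first threshold were 4.43% higher and 11.3% lower in GFP-positive cells. Of the 61 called lower, 4 were higher in GFP-positive cells (Cilp2, Gm4969 and 2 entries of Rapsn with equal values, the latter symbols named after their values were seen), 37 were lower and 20 did not pass. Without day 2 replicate 1 the 29 became 16 and the 37 became 21, and without day 3 replicate 2 they became 17 and 20. The 37 became 22 without day 2 replicate 2 or 3 and 21 without day 3 replicate 3, the 4 became 1 without day 2 replicate 1 or day 3 replicate 2 and 2 without GFP-positive replicate 1, and the 30 became 46 without day 0 replicate 1. The GFP-negative cells were not free of Rax, with 960.0, 1018 and 946 normalised counts against 9967, 9609 and 9099.8 in GFP-positive cells.

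The streak TFs stood on the GFP-negative side. Of 27, on day 4 23 were higher in the GFP-negative and 0 in the GFP-positive gate, and 10 of the 11 that rose between days 2 and 3 were among the 23, Sp8 being the exception. T had 1672, 2414 and 1689 normalised counts in GFP-negative and 98.8, 163 and 172 in GFP-positive cells (log2 difference -3.75, standard error 0.29, adjusted p = 6.93e-09, limma). Mixl1 had 543, 1088 and 844 in GFP-negative and 11.4, 51.3 and 60.1 in GFP-positive cells (log2 difference -4.54, standard error 0.46, adjusted p = 2.56e-07, limma). In GFP-positive cells both genes stood below each of their 3 values of day 3, and in GFP-negative cells they stood above them.

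Of the 8 forebrain and eye-field TFs that rose, 5 were higher in GFP-positive cells (Six3, Rax, Lhx2, Hesx1 and Fezf1) and 0 were lower. The gates were sorted on a reporter in Rax, so its own difference was set by the sort and the other 4 are the ones measured apart from it. Hesx1 had 3102, 2803 and 3045 normalised counts in GFP-negative and 5949.7, 5061 and 4259.7 in GFP-positive cells (log2 difference 0.76, standard error 0.19, adjusted p = 0.00817, limma). Lhx5 stood at 3777, 3838 and 4032 in GFP-negative and 4597, 3928 and 3756 in GFP-positive cells, values that overlapped between the gates. Lmx1b, Irx3 and Irx5, by contrast, were lower in GFP-positive cells by 2.62, 3.31 and 3.39 on the log2 scale. Lmx1b in GFP-negative cells, at 1319, 1323 and 1377, lay below its 3 values of day 3, whereas Irx3 at 849, 917 and 1269 lay above them.

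**Figure D3:**
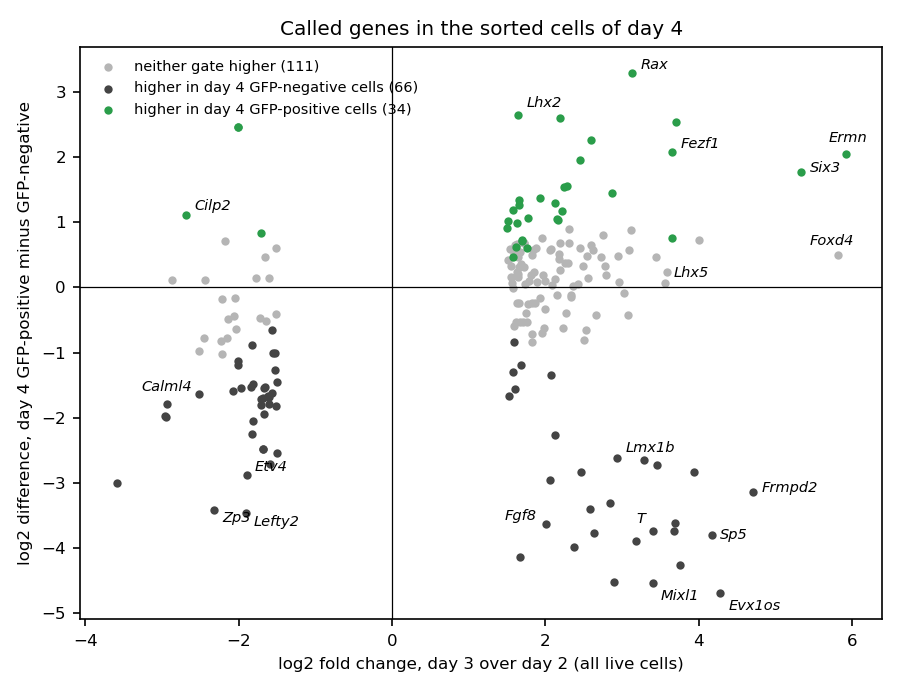
Each point is 1 of the 211 entries called between days 2 and 3, with its log2-fold-change between the days on the horizontal axis and its log2 difference between the gates of day 4 (positive minus negative) on the vertical axis. Green points were higher in GFP-positive cells (34 entries), dark points higher in GFP-negative cells (66) and pale points in neither (111). Among the genes that rose, streak genes such as T, Mixl1 and Sp5 lie at the bottom and Six3, Ermn and Rax at the top.

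Of the 15 genes with the largest rises, 9 are described above, and the other 6 are of mixed function. Ermn, which encodes the actin-binding protein ermin, best known from oligodendrocytes, had the largest log2-fold-change of the 15. It had 0, 5.36 and 6.14 normalised counts on day 2 and 156, 289 and 219 on day 3 (log2-fold-change 5.92, standard error 0.55, adjusted p = 5.47e-07, limma), and on day 4 it reached 1119, 1015 and 897 in GFP-negative and 4541, 4178 and 3812 in GFP-positive cells. Foxd4, a forkhead TF of early neural ectoderm, had 16.1, 8.56 and 4.39 on day 2 and 581, 575 and 476 on day 3 (log2-fold-change 5.82, standard error 0.32, adjusted p = 2.24e-10, limma). Its day 4 values of 3267, 2967 and 2508 in GFP-negative and 4752, 4035 and 3574 in GFP-positive cells did not overlap. Their difference did not pass in the main fit, which did not pair the gates (adjusted p = 0.371, limma).

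Frmpd2, a FERM and PDZ domain protein, had 7.95, 1.48 and 1.82 on day 2 and 104, 83.6 and 127 on day 3 (log2-fold-change 4.72, standard error 0.67, adjusted p = 7.75e-05, limma). Aplnr, the receptor for apelin peptides and a gene of early mesoderm and vessels, had 8.05, 41.8 and 20.03 on day 2 and 310.1, 251 and 220.4 on day 3 (log2-fold-change 3.69, standard error 0.56, adjusted p = 0.000131, limma). Pappa, a metalloprotease that releases insulin-like growth factors from a binding protein, had 4.59, 4.29 and 4.39 on day 2 and 51.4, 65.3 and 60.1 on day 3 (log2-fold-change 3.46, standard error 0.41, adjusted p = 1.01e-05, limma). These genes were all higher in GFP-negative cells of day 4, by 3.14, 3.62 and 2.72 on the log2 scale. Of the 15 largest rises, 12 were called in all 6 fits that left out a library, the exceptions being Evx1os, Aplnr with 4 fits and Frzb with 3.

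Wnt pathway genes rose more often than they fell, with 19 of 53 tested rising and 2 falling. Leaving out a library of day 2 or day 3 left 11 to 16 that rose, and leaving out day 0 replicate 1 left 20: 12 or 13 without day 2 replicates 3 or 2, 11 without day 3 replicate 2 and 12 without its replicate 3. Among 18 ligands 6 rose (Wnt1, Wnt2, Wnt2b, Wnt3, Wnt8a and Wnt10b), and all 6 were among the 14 of the 18 that were higher in GFP-negative cells of day 4. The rise of Wnt1 lost its adjusted p below 0.05 without day 2 replicate 1 or any library of day 3, and those of Wnt2 and Wnt10b without any of the 6 libraries except day 2 replicate 1. Wnt3, the ligand that the embryo needs to form a streak, had 26.4, 17.1 and 14.9 normalised counts on day 2 and 112, 107 and 88.3 on day 3 (log2-fold-change 2.37, standard error 0.43, adjusted p = 0.00087, limma). Wnt8a had 47.03, 53.5 and 50.05 on day 2 and 172, 145 and 168 on day 3 (log2-fold-change 1.66, standard error 0.28, adjusted p = 0.000395, limma). The calls of both ligands held in 0 of the 6 fits that left out a library, while their adjusted p stayed below 0.05 in all of them. Wnt3 was also not called without the filter, without the variance trend, after quantile normalisation or with only days 0 to 3 in the fit.

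Among 14 Wnt receptors and co-receptors 7 rose, 0 fell, and 4 of the 7 were higher in GFP-positive cells. Fzd5, a Frizzled receptor of the early eye, was abundant, with 1708, 1823 and 1736 on day 2 and 5170.2, 5929 and 5464 on day 3 (log2-fold-change 1.65, standard error 0.23, adjusted p = 6.05e-05, limma). On day 4 it had 9699.7, 8101 and 5975 in GFP-negative and 18784, 19862 and 17607 in GFP-positive cells (log2 difference 1.27, standard error 0.23, adjusted p = 0.000405, limma). Fzd8, a Frizzled receptor of the anterior head, rose from 517, 552 and 539.7 to 1164, 1159 and 1023 (log2-fold-change 1.05, standard error 0.14, adjusted p = 3.86e-05, limma).

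Of 11 Wnt antagonists 4 rose (Frzb, Shisa2, Sfrp1 and Dkk1) and 1 fell (Sfrp4), a fall that was lost without any of the 6 libraries except day 2 replicate 1. Frzb, a secreted Frizzled-related protein, had 31.3, 32.7 and 80.8 normalised counts on day 2 and 540.5, 649 and 433 on day 3, with replicate 3 the highest of day 2 and the lowest of day 3 (log2-fold-change 3.58, standard error 0.53, adjusted p = 0.000107, limma). Shisa2, which holds Frizzled and FGF receptors inside the cell, had 486, 493 and 413 on day 2 and 1974, 2557 and 2121 on day 3 (log2-fold-change 2.25, standard error 0.20, adjusted p = 2.3e-07, limma). Sfrp1, another secreted Frizzled-related protein, had 1392, 1456 and 1456 on day 2 and 4411, 5265 and 5032 on day 3 (log2-fold-change 1.77, standard error 0.09, adjusted p = 1.11e-10, limma). Shisa2 and Sfrp1 were higher in GFP-positive cells of day 4, Dkk1 was higher in GFP-negative cells, and the gate difference of Frzb did not pass the test.

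The 10 feedback targets of the pathway did not move together, with 2 rising, 1 falling and a median of 0.01. Sp5 is described above. Axin2, a scaffold protein and a common readout of the pathway, had 1035, 1036 and 968 on day 2 and 1164, 1074 and 982 on day 3 and did not pass (adjusted p = 0.845, limma). Notum, a secreted enzyme that inactivates Wnt ligands, was called lower, from 971, 1042 and 990.1 to 252, 354 and 316 (log2-fold-change -1.71, standard error 0.24, adjusted p = 5.47e-05, limma).

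**Figure D4:**
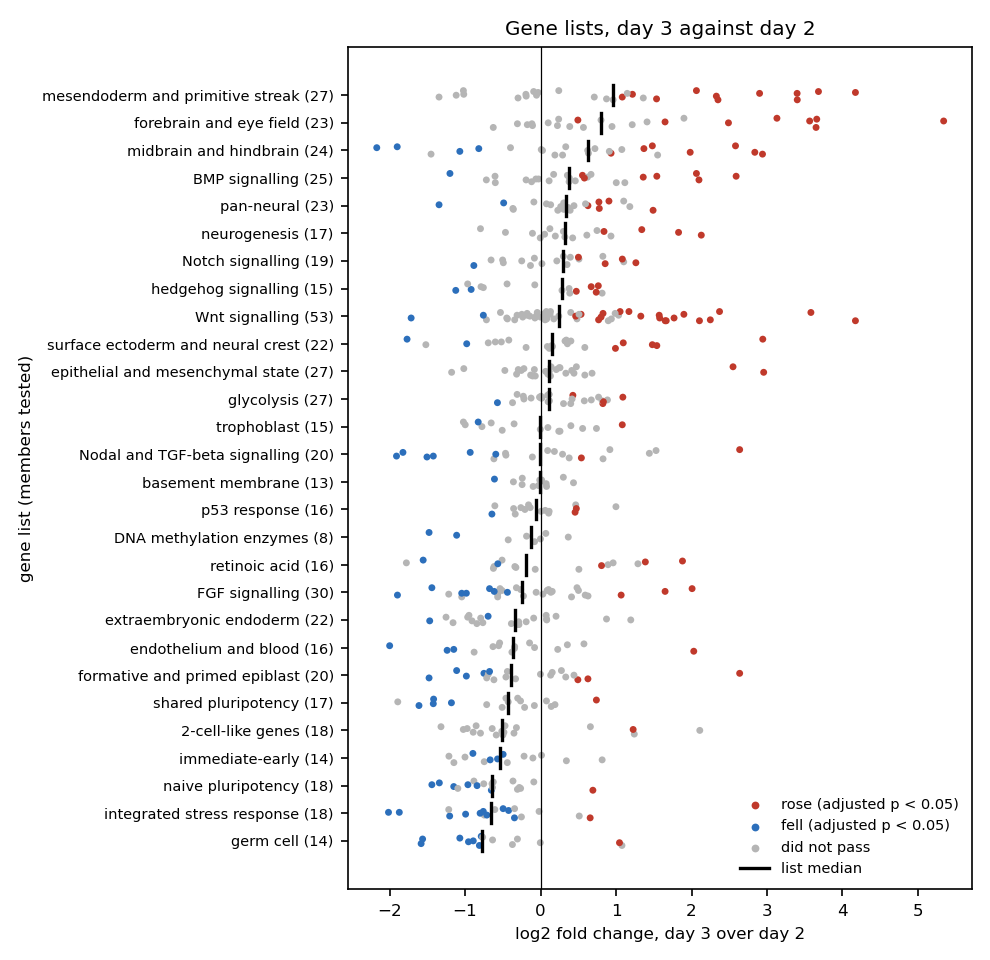
Each point is 1 gene of the 28 lists, with its log2-fold-change between the days on the horizontal axis and its list, with the number of members tested, on the vertical axis. Red points rose and blue points fell at an adjusted p below 0.05, grey points did not pass, and black bars are list medians. The medians run from 0.96 for mesendoderm and primitive streak to -0.78 for germ cell genes.

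FGF pathway genes fell more often than they rose, at 7 against 3 of 30. The ligands went separate ways. Fgf8, a ligand of the streak and of signalling centres in the brain, rose from 119, 115 and 111 to 505, 434 and 463 (log2-fold-change 2.01, standard error 0.30, adjusted p = 0.000134, limma). Fgf4, the main FGF of mESCs, fell from 4596, 4455 and 4526 to 1676, 1721 and 1608 (log2-fold-change -1.44, standard error 0.23, adjusted p = 0.00025, limma). Fgf5, the ligand that marks the epiblast after implantation, had 4956, 4592 and 4653 on day 2 and 5326, 5309 and 5166 on day 3 and did not pass (adjusted p = 0.677, limma). The replicates of these genes lay close together on both days.

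Of 11 targets that FGF signalling switches on as feedback, 4 fell and 0 rose. The fall of Etv5 was lost in all 6 fits that left out a library. Etv4, an ETS-family TF, fell from 2988, 3119.6 and 2847 to 1004, 709 and 722 and was called in 5 of 6 fits that left out a library (log2-fold-change -1.90, standard error 0.27, adjusted p = 8.92e-05, limma). Spry4, an inhibitor of the pathway, fell from 3079, 3194 and 3114 to 1600.0, 1551 and 1406 (log2-fold-change -1.04, standard error 0.17, adjusted p = 0.00029, limma). Dusp6, a phosphatase that switches off ERK, fell from 4644, 4953 and 4964 to 2854, 3366 and 3314 (log2-fold-change -0.61, standard error 0.15, adjusted p = 0.00679, limma). Among the receptors, Fgfr2 was called higher, from 1148, 1351 and 1286 to 3394, 4461 and 4078 (log2-fold-change 1.65, standard error 0.13, adjusted p = 4.36e-08, limma). In the list as a whole, 5 to 7 members fell and 2 to 4 rose when a library of day 2 or day 3 was left out, and 8 fell and 4 rose without day 0 replicate 1.

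Of 20 genes of Nodal and TGF-beta signalling 6 fell and 2 rose. Lefty1 and Lefty2, secreted Nodal antagonists that Nodal itself induces, were both called lower. Lefty1 fell from 629, 646 and 693 to 179, 178 and 197 (log2-fold-change -1.82, standard error 0.25, adjusted p = 5.03e-05, limma). Lefty2 fell from 1596, 1424 and 1376 to 329.9, 421 and 424 (log2-fold-change -1.91, standard error 0.34, adjusted p = 0.000717, limma), a call that held in 0 of the 6 fits that left out a library. The pair are neighbours on chromosome 1 with near-identical coding sequences, so the split of reads between them is uncertain. Nodal had 638, 706 and 712 on day 2 and 525, 429 and 394 on day 3 and did not pass (adjusted p = 0.16, limma). Without day 3 replicate 2 4 members of the list fell, without day 0 replicate 1 6 fell and 6 rose, and with days 2 and 3 alone 8 fell and 6 rose.

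Cer1 (Cerberus), a secreted antagonist of Nodal, BMP and Wnt, went the other way, with 21.8, 33.2 and 17.6 on day 2 and 212, 155 and 104 on day 3 (log2-fold-change 2.64, standard error 0.47, adjusted p = 0.000612, limma). Its call held in 0 of the 6 fits that left out a library, while its adjusted p stayed below 0.05. It was higher in GFP-negative cells of day 4, at 458, 603 and 407 against 20.5, 43.03 and 45.5. Of 25 BMP pathway genes 7 rose and 1 fell, the fall (Bmp6) being lost without any of the 6 libraries except day 3 replicate 1, and 2 fell without day 0 replicate 1. The 7 include Gsc, which is counted above among the streak TFs. Bmp7, a ligand of several early tissues, rose from 113, 92.7 and 114 to 304, 275 and 247 (log2-fold-change 1.36, standard error 0.14, adjusted p = 1.76e-06, limma). Grem1 (Gremlin), a secreted BMP antagonist, rose from 4.59, 9.64 and 10.5 to 31.8, 76.5 and 58.02 (log2-fold-change 2.59, standard error 0.37, adjusted p = 7.9e-05, limma) and was higher in GFP-positive cells. Bmp4 had 767, 828 and 855 on day 2 and 511, 545 and 555 on day 3, just short of the threshold (adjusted p = 0.0514, limma).

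The other pathways held members that rose and members that fell, where 7.46% and 6.99% of all genes tested did so. No direction of a pathway is read from these counts. In the retinoic acid list 3 of 16 rose, among them Cyp26c1, an enzyme that degrades retinoic acid, and 2 fell, the receptors Rarb and Rarg. In the Notch list 4 of 19 rose and 1 fell, and the 4 that rose were targets or regulators (Hes7, Hey1, Nrarp and Lfng). Without day 0 replicate 1, 7 Notch genes rose and 2 fell. Hey1, a basic helix-loop-helix repressor, went from 214, 189 and 217 to 556, 490.0 and 447 (log2-fold-change 1.26, standard error 0.18, adjusted p = 8.92e-05, limma). In the hedgehog list 4 of 15 rose and 2 fell, but when a library of day 2 or day 3 was left out 0 to 3 rose, and without day 0 replicate 1, 6 rose and 5 fell. The number that rose was 1 without day 2 replicate 1 or 2, 0 without day 2 replicate 3 or day 3 replicate 2, 2 without day 3 replicate 1 and 3 without its replicate 3, and the number that fell was 0 in these fits except without day 3 replicate 1, where it was 2. The number of retinoic acid genes that fell was 0 without day 2 replicate 2 or 3 and 1 without any other of the 6 libraries, and without day 0 replicate 1, 6 rose and 4 fell.

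Some pluripotency genes fell, most of them by less than the limit of a call. Of 18 genes of naive pluripotency 6 fell, 1 rose and the median was -0.65. Zfp42 (Rex1), a zinc-finger TF of naive mESCs, fell from 4551, 5020.1 and 4715 to 2646, 2580.0 and 2744 (log2-fold-change -0.84, standard error 0.22, adjusted p = 0.0128, limma). Esrrb, an orphan nuclear receptor of the naive state, fell from 4912, 5444 and 5323 to 3067, 2522 and 2488 (log2-fold-change -0.96, standard error 0.31, adjusted p = 0.0434, limma). The fall of Esrrb lost its adjusted p below 0.05 without any of the 6 libraries except day 3 replicate 1, and that of Zfp42 without day 2 replicate 2. Fgf4 belongs to this list too. Without 1 library of day 2 or day 3, 2 to 4 members fell (3, 2 and 3 without day 2 replicates 1, 2 and 3, and 4, 3 and 3 without those of day 3), while with the 6 libraries alone 12 fell.

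Nanog, a homeobox TF of naive pluripotency that is expressed again in the posterior epiblast, was the member that rose. The study describes pluripotency genes, Nanog among them, as falling consistently over the whole time course, and the direction at this step differs from that. Nanog had 1583, 1839 and 1757 normalised counts on day 2 and 2432, 3013 and 2952 on day 3, with no overlap (log2-fold-change 0.69, standard error 0.20, adjusted p = 0.0211, limma). Its adjusted p stayed below 0.05 in 2 of the 6 fits that left out a library, those without day 2 replicate 2 or day 3 replicate 1. On day 4 it had 2663, 2449 and 2190.2 in GFP-negative and 133, 214 and 129.7 in GFP-positive cells (log2 difference -3.96, standard error 0.20, adjusted p = 1.5e-11, limma). On day 1 it had been higher, at 4516, 6423 and 4762, and its steps before and after day 2 differed by 2.28 log2 units (standard error 0.34, adjusted p = 0.00108, limma).

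Of 17 genes shared by naive and primed pluripotency 4 fell and 1 rose, with a median of -0.43. Dppa4, a chromatin-associated factor of pluripotent cells, was called lower in all 6 fits, from 6007, 6241 and 6248 to 1906, 2005 and 2150.2 (log2-fold-change -1.61, standard error 0.19, adjusted p = 1.19e-05, limma). Pou5f1 (Oct4), the central pluripotency TF, had 35599.9, 31819 and 30447 on day 2 and 28985, 20854 and 19799 on day 3, where replicate 1 stood above the others, and did not pass (adjusted p = 0.0617, limma). The rise, of Lin28b, was lost without day 2 replicate 3 or day 3 replicate 2 or 3. The count of 4 became 6 without day 3 replicate 1 and 9 without day 0 replicate 1.

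Of 20 genes of the formative and primed epiblast 5 fell and 3 rose. Pou3f1 (Oct6), a POU-domain TF of the late epiblast, fell from 11257, 10282 and 9854 to 7445, 5988 and 5378 (log2-fold-change -0.75, standard error 0.18, adjusted p = 0.00871, limma). The DNA methyltransferase genes Dnmt3a and Dnmt3l fell by 1.11 and 1.48 on the log2 scale. Dnmt3b, a further member of that family, had 127590.0, 130428 and 125843 on day 2 and 141442, 123445 and 119697 on day 3, which overlapped. Without day 3 replicate 3 Pou3f1 lost its adjusted p below 0.05 and the number that fell was 3, and without day 0 replicate 1 it was 8.

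**Figure D5:**
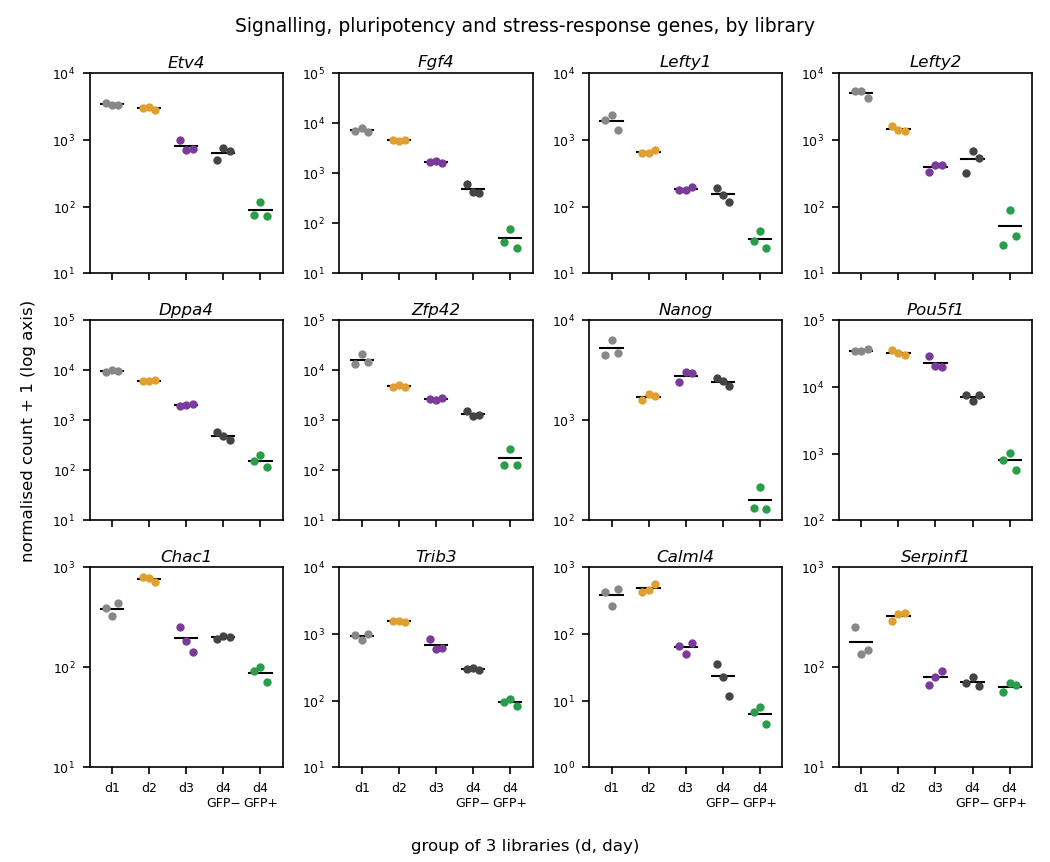
Normalised counts plus 1 (log axis) of 12 genes in the libraries of day 1, day 2, day 3, day 4 GFP-negative (GFP−) and day 4 GFP-positive (GFP+) cells. Each point is 1 library and each bar the mean of 3. Of the 12 genes, 10 fell from day 2 to day 3, Nanog rose, and Pou5f1 did not pass the test.

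Genes of the integrated stress response fell more often than they rose. This is the programme that cells start through the TF Atf4 when amino acids run short or protein folding fails. Of its 18 genes 10 fell and 1 rose, with a median of -0.66. Chac1, a glutathione-degrading enzyme and sensitive target of the programme, had 388, 324 and 437 normalised counts on day 1, 798, 777 and 716 on day 2 and 254, 184 and 142 on day 3 (log2-fold-change -2.01, standard error 0.20, adjusted p = 1.49e-06, limma). It was thus higher on day 2 than on either neighbouring day. Trib3, a pseudokinase and target of Atf4, had 959, 823 and 1005 on day 1, 1560.3, 1573 and 1515 on day 2 and 839.6, 588 and 615 on day 3 (log2-fold-change -1.20, standard error 0.15, adjusted p = 2.06e-05, limma). Atf4 itself fell from 9105, 9308 and 8645 to 8096, 6644 and 6637 (log2-fold-change -0.35, standard error 0.10, adjusted p = 0.0268, limma). Atf4 kept an adjusted p below 0.05 in 2 of the 6 fits, those without day 2 replicate 3 or day 3 replicate 1. The count that fell was 6 without day 3 replicate 3 and 7 to 11 without each of the others. The rise, of Slc7a11, was lost without any of the 6 libraries except day 3 replicate 1, and 2 rose without day 0 replicate 1.

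The falls were led by genes of no common list. Calml4, a calmodulin-like protein, had 424, 464 and 554 normalised counts on day 2 and 64.7, 49.8 and 71.98 on day 3 (log2-fold-change -2.94, standard error 0.36, adjusted p = 1.36e-05, limma). Serpinf1, which encodes pigment epithelium-derived factor, had 286, 337 and 351 on day 2 and 65.5, 78.8 and 90.8 on day 3 (log2-fold-change -2.04, standard error 0.24, adjusted p = 9.58e-06, limma). Kcnh3, a potassium channel subunit, had 573, 531 and 535 on day 2 and 161, 122 and 112 on day 3 (log2-fold-change -2.06, standard error 0.22, adjusted p = 2.53e-06, limma). In these 3 genes the lowest value of day 2 was more than the highest of day 3 in every case.

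Cilp2, a protein of cartilage matrix, fell from 179, 221 and 191 to 28.1, 26.3 and 35.2 (log2-fold-change -2.69, standard error 0.31, adjusted p = 6.33e-06, limma). Zp3, an egg-coat glycoprotein, fell from 275, 297 and 299 to 42.7, 66.4 and 64.9 (log2-fold-change -2.33, standard error 0.42, adjusted p = 0.00074, limma), but its call held in 0 of the 6 fits that left out a library. Smtnl1, a smoothelin-like muscle protein, had the largest fall by the naming rule, from 65.4, 43.9 and 51.8 to 2.44, 10.2 and 7.55 (log2-fold-change -2.97, standard error 0.46, adjusted p = 0.000182, limma), and Plac9a, which has a close copy that may share its reads, fell from 63.8, 43.5 and 45.02 to 6.91, 4.13 and 6.08. The remaining named falls (Cela2a, Ct55, Nlrc4, Timm8a2, Capn3, Tsx, Acoxl and Tmem40) lay between -2.07 and -2.52. Of the 15, 7 were called in all 6 fits that left out a library and all 15 kept an adjusted p below 0.05. Cela2a, Ct55, Nlrc4, Capn3, Tsx, Acoxl, Smtnl1 and Zp3 were the 8 that lost the call in at least 1 fit.

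Germ cell genes also fell more often than they rose, at 7 against 1 of 14 and a median of -0.78. Ddx4 and Nanos3, RNA regulators of the germ line, and Prdm1, a repressor that also acts in other early tissues, were among the 7. Ddx4 went from 767, 831 and 892 to 344, 494 and 523 (log2-fold-change -0.89, standard error 0.22, adjusted p = 0.00821, limma) and Prdm1 from 261, 305 and 322 to 171, 169.7 and 163 (log2-fold-change -0.81, standard error 0.25, adjusted p = 0.0347, limma). Prdm1 lost its adjusted p below 0.05 in each fit that left out a library. The number that fell was 3, 4 and 3 without day 2 replicates 1, 2 and 3, and 5, 4 and 4 without those of day 3, and 2 rose without day 0 replicate 1.

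Markers of cell types outside streak and neural plate were read for the same libraries. The summed level of 11 markers of extraembryonic endoderm was 8230.0 to 11639 normalised counts on day 2 and 3613 to 7179.5 on day 3, with 0 rising and 1 falling. For 7 trophoblast markers it was 1821 to 2109 and 2831 to 2934. Eomes, which streak and trophoblast share, was the trophoblast marker that rose. Endothelium and blood markers summed to 613 to 654 and 470 to 558, and Kdr, a receptor of early mesoderm as well as of vessels, rose in that list, where 1 other marker fell. Markers of surface ectoderm and neural crest summed to 106 to 117 and 149 to 167, with 1 rising and Tfap2b, Trp63, Krt5 and Krt14 below 10 on both days. Germ cell markers summed to 1280.5 to 1512 and 629 to 882, with 3 of 4 falling, and neuron markers to 3081 to 3513 and 4375 to 4948, with 2 of 6 rising. The summed level of 5 mESC markers was 50245 to 55671 on day 2 and 37708 to 44901 on day 3, with 1 rising and 2 falling. No marker mean was 0 on either day, and the part of these cell types in the changes above was not tested.

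Against the step from day 1 to day 2, the step from day 2 to day 3 differed for 386 genes (1.84%), 192 of them (0.914%) upward and 194 (0.924%) downward (limma, adjusted p below 0.05). The count was 97, 119 and 167 without day 2 replicates 1, 2 and 3, 248 and 249 without day 3 replicates 2 and 3, 1231 without day 0 replicate 1 and 43 in the 12 libraries of days 0 to 3 alone. Among the genes described here that passed, the difference was positive for Six3, Hesx1, Rax, Lhx5, Foxd4, Ermn, T, Mixl1, Sp5, Mesp1, Evx1os, Irx3, Fzd5 and Nanog, among others. It was negative for Calml4, Serpinf1, Kcnh3, Tmem40, Chac1 and Trib3, among others. Kdr had 145, 143 and 165 normalised counts on day 1, 27.3, 36.2 and 33.3 on day 2 and 123, 150.1 and 131 on day 3, so that its rise followed a fall (difference of the steps 4.23, standard error 0.71, adjusted p = 0.00277, limma). Lmx1b, Zeb2 and Aplnr did not pass this test and had already been higher on day 2 than on day 1.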

How the data were processed

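RNA-seq was performed on OV organoids at 8 combinations of day and GFP gate, with 3 libraries each. The authors quantified polyA RNA with kallisto 0.43.1 against coding and noncoding transcripts of mm10, summed the estimates per gene and divided them by DESeq2 size factors. The deposited values are therefore a signal, namely normalised counts that are not whole reads, and a count model was not used on them. The table also held 9 columns of the authors' own calls, which were not used. It listed 49705 gene entries, of which 21005 reached 10 normalised counts in at least 3 of the 24 libraries and were tested.

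Values were analysed as log2(normalised count + 1) with limma 3.58.1 in R 4.3.3, two-sided, with a trend of the variance on the mean and p-values adjusted by Benjamini-Hochberg over all genes tested. The 24 libraries entered 1 fit with a mean for each of the 8 groups, which left 16 residual degrees of freedom and a median residual SD of 0.31 log2 units. Genes were called at a log2-fold-change beyond 1.5 in either direction with an adjusted p under 0.001. In simulated data of 21005 genes, 100 genes for each size were given changes of 1, 2 and 3 log2 units, upward or downward. Of these, 0%, 74% and 84% were called, and 57%, 84% and 91% passed an adjusted p of 0.05. Planted falls stopped at 0, so genes with low counts fell by less than the stated size. A change of 1 lies below the limit of a call, so the 0% follows largely from the rule. Depth was estimated from the spacing of low values, since read totals were not given in the table.

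Genes were named if they were among the 15 largest rises or falls that were called, did not overlap between the days, reached a mean of 50 on the higher day, lay on an assembled chromosome and had a symbol other than a clone, Gm number or pseudogene, or if they were members of the 28 lists. The members and the lists were chosen with earlier results of these data known, and some members are not reported here. Of the entries tested, 20818 had an identifier in GENCODE M21, and promoters were those of RefSeq on GRCm38.p6. Alternatives covered the pseudocount, the filter, quantile normalisation, the trend, the libraries in the fit, the thresholds, a replicate block and leaving out in turn day 0 replicate 1 and each library of days 1 to 4. Figures were drawn with matplotlib 3.10.9.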

Additional observations from a re-analysis of the deposited data

Results flagged for a closer look

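The following genes of the naming rule changed differently between days 2 and 3 than between days 1 and 2, by a test of the difference between the steps (limma, all 24 libraries, adjusted over 21005 genes). The value is the later step minus the earlier one on the log2 scale. Both steps use the day 2 libraries.

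Among anterior neural genes the difference was 3.93 for Six3 (adjusted p = 8.7e-05, limma), 4.24 for Hesx1 (adjusted p = 7.6e-07, limma) and 2.73 for Lhx5 (adjusted p = 0.00121, limma). Hesx1 had been lower on day 2 than on day 1, with 137, 114 and 132 normalised counts on day 1, before it rose. Foxd4 differed by 5.02 (adjusted p = 8.7e-05, limma) and Ermn by 4.80 (adjusted p = 0.00923, limma).

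Among streak genes the difference was 2.76 for T (adjusted p = 0.00477, limma), 3.30 for Mixl1 (adjusted p = 0.0326, limma), 3.17 for Sp5 (adjusted p = 0.0341, limma) and 3.32 for Mesp1 (adjusted p = 0.0496, limma). Evx1os had the largest difference of the named genes, 5.90 (adjusted p = 0.0109, limma), at 2.49, 9.30 and 17.3 normalised counts on day 1 and 0.841, 3.14 and 1.93 on day 2.

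Among the falls the difference was -3.29 for Calml4 (adjusted p = 0.00653, limma), -2.96 for Serpinf1 (adjusted p = 0.00061, limma), -2.03 for Kcnh3 (adjusted p = 0.00573, limma) and -1.42 for Tmem40 (adjusted p = 0.0397, limma). Serpinf1 had been higher on day 2 than on day 1, at 249.9, 135 and 149, and Kcnh3 had hardly differed, at 565, 532 and 581 on day 1.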

How the results depend on the processing

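No named gene reversed its direction under any alternative in which it was tested, and with days 0 to 3 alone 83 of 184 lost their call or adjusted p below 0.05. That fit gave 33 genes called higher, 710 higher at an adjusted p below 0.05 and 43 with differing steps, and days 2 and 3 alone gave 2425 lower at that p. Of the calls, 71.1% were rises with all libraries, 59.9% with days 2 and 3 alone and 41.8% with days 0 to 3. A pseudocount of 5 gave 95 genes called lower. An adjusted p below 0.05 with a log2 limit of 1 gave 665 higher and 605 lower, an adjusted p below 0.001 with no fold limit 360 and 222, and a test against the limit of 1.5 itself (limma treat) 23 and 1. With the thresholds of a call on the gate difference, 8 genes called higher and 2 called lower were higher in GFP-positive cells, and 24 called higher and 23 called lower were higher in GFP-negative cells. The causes of these differences were not tested.

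When single libraries were left out, genes called higher ranged from 95 to 188, genes called lower from 26 to 96, rises at an adjusted p below 0.05 from 1048 to 2543, falls from 827 to 2540 and differing steps from 97 to 1231, with the highest value of each without day 0 replicate 1. Genes called higher that were higher in GFP-negative cells ranged from 16 to 43 and in GFP-positive cells from 23 to 46, and genes called lower from 20 to 55 and from 1 to 6. In a fit that held the replicate number as a block, 139 entries were called higher and 56 lower, of which 137 and 55 were shared. Among the named genes Wnt3, Cer1 and Acoxl were then not called and Wnt10b and Nkx1-2 lost their adjusted p below 0.05. The correlations of the deviations of same-numbered libraries of days 2 and 3 lay between -0.0273 and 0.118 (mean 0.0629). For the GFP-positive and GFP-negative libraries of day 4 they lay between -0.108 and 0.0227. Whether same-numbered libraries shared a culture or a batch cannot be told from these values.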

Other observations

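For further lists the counts between day 2 and day 3 can be set beside the shares over all genes tested, where 7.46% rose and 6.99% fell. Of 27 glycolysis genes 4 rose and 1 fell, and of 16 genes of the p53 response 2 rose and 1 fell. The glycolysis rises were 2 without day 2 replicate 1 or 2 and 9 without day 0 replicate 1, 7 after quantile normalisation and 1 with only days 0 to 3 in the fit. The p53 falls were 5 without day 3 replicate 1 and 2 without day 0 replicate 1, while 1 p53 gene rose without day 2 replicate 3 or day 3 replicate 1. Of 27 genes of epithelial and mesenchymal state 2 rose and 0 fell. The 2 were Cdh11, a mesenchymal cadherin, and Zeb2, a zinc-finger repressor that acts in epithelial-mesenchymal transition and in early neural tissue. Zeb2 had 105, 134 and 92.5 normalised counts on day 2 and 842, 843 and 882 on day 3 (log2-fold-change 2.96, standard error 0.30, adjusted p = 1.57e-06, limma), and in the day 4 gates it stood at 2837, 2798 and 2735 in GFP-negative and 2940.4, 2849 and 3053 in GFP-positive cells.

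Of 14 immediate-early genes 4 fell (Junb, Ier2, Nr4a1 and Zfp36) and 0 rose. The number was 0 without day 2 replicate 1, day 3 replicate 2 or day 3 replicate 3, and 2 without day 2 replicate 2. Of 16 genes of endothelium and blood 1 rose and 3 fell, of 15 trophoblast genes 1 rose and 1 fell, and of 8 DNA methylation enzymes 0 rose and 2 fell. The trophoblast rise was lost without day 2 replicate 1 or 3 or day 3 replicate 2 or 3, and the fall without day 2 replicate 2 or 3 or day 3 replicate 2 or 3. Of 13 basement membrane genes 1 fell (Nid2, lost without day 2 replicate 3 or day 3 replicate 3, with 2 falls without day 0 replicate 1), and of 22 genes of extraembryonic endoderm 2 fell (Dab2 and Rhox5) and 0 rose. The number for extraembryonic endoderm was 4 without day 3 replicate 1 and 1 without day 2 replicate 1, day 2 replicate 3 or day 3 replicate 3.

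Day 3 replicate 1 stood apart for a small set of entries. Of the entries tested, 22 had an absolute log2-fold-change above 4 and were not called. In 7 of them the 3 libraries of day 2 and day 3 replicate 1 held at least 10 normalised counts while day 3 replicates 2 and 3 were listed at 0, and in 6 the pattern was the opposite. Of the 22, 17 had the name of a Gm number, a Rik clone or a pseudogene.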
